A study of Homo sapiens with 2 samples.

Results

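The 10 genes described here encode the steps by which a cell takes up cystine and makes, recycles and breaks down glutathione. They were chosen by symbol, as SLC7A11, SLC3A2, GCLC, GCLM, GSS, GSR, CHAC1, GGCT, CTH and CBS, and all 10 were found once each among the 60616 genes of the deposited tables. The selection rule used no measured value, but the genes were picked with earlier results of these data known. The cells were HSC-3, an established line of human tongue squamous cell carcinoma. One library came from cells given the vehicle, 0.1% DMSO, and 1 from cells given 1 µM FIN56, with a time of 48 h stated for FIN56. The compound FIN56 induces ferroptosis, an iron-dependent form of cell death, and is known for lowering GPX4 protein and for acting on squalene synthase. The comparison asks how far the transcripts of this pathway differed between FIN56 and vehicle at a dose that the study describes as sublethal.

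Cystine, the oxidised dimer of cysteine, enters the cell through system xc- in exchange for glutamate. Inside it is reduced to cysteine, which glutamate-cysteine ligase and then glutathione synthetase build into the tripeptide glutathione. The transsulfuration route offers another source of cysteine, from methionine by way of homocysteine. GPX4 uses glutathione to reduce lipid hydroperoxides, and for that reason the pathway is regarded as a main defence of carcinoma cells against ferroptosis. NRF2, which binds antioxidant response elements, and ATF4, which binds amino acid response elements, are its textbook transcriptional regulators.

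All 10 genes were expressed, with an FPKM of 1 or more in both libraries. FPKM is the number of fragments scaled to effective gene length and library size, so levels of different genes can be set side by side. None of the 10 reached an FPKM ratio of 1.5 (FIN56 over DMSO), and CBS alone lay at 1/1.5 or less. GSS, at 0.706, came next, and the other 8 genes stayed within 1.2 times of the DMSO level in either direction, from 0.908 to 1.18. The threshold of 1.5 is the fold change used in the study. Where both libraries had an FPKM above 0, which held for 24454 genes, 14.7% were at 1.5 or more and 17.3% at 1/1.5 or less. Over the 12638 genes with an FPKM of 1 or more in both, these shares were 3.87% and 6.77%, and 57.6% of the genes lay within 1.2 times. The median log2 FPKM ratio of the 10 genes was -0.057, beside 0.028 over the 12638 genes.

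With 1 library per condition there is no replicate error and no test between the conditions, and a difference between the libraries cannot be told apart from a difference between the cultures. Beside each FPKM ratio stands the ratio of expected counts, scaled by library totals, with its exact Clopper-Pearson interval at 95%. These intervals cover counting error only. They may be too narrow even for that, because the reads carried no molecular identifiers and can repeat a molecule. Expected counts summed to 70184517 with DMSO and 73062209 with FIN56. Of 9 markers of squamous carcinoma cells, among them KRT5, KRT14, TP63 and EPCAM, all were expressed, with FPKM values from 43.84 to 2078.49. Of 7 markers of other cells, PTPRC, CD3E, PECAM1 and COL1A2 were listed at 0 in both. CD68 stood at 57.27 in DMSO and 24.58 in FIN56, COL1A1 at 4.25 and 2.19, and DCN at 0.15 and 0.21. The 7 summed to 61.67 FPKM with DMSO and 26.98 with FIN56, and CD68 alone made up most of the sum in both. The part of these markers in the results was not tested. In a bulk library, fewer cells that express a gene and less of its RNA per cell cannot be told apart.

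The promoters of the 10 genes were read for the core letters of both regulators' elements, as a description of their sequence. The RefSeq table (GRCh38.p14) held 10 start sites for 6 of the genes, and SLC7A11, GSS, GSR and GGCT had no entry. In the 250 bases before these start sites, on both strands, the antioxidant response element core TGACNNNGC was found for SLC3A2, GCLM and CBS. For SLC3A2 and CBS it was found at 1 of 3 start sites each. The amino acid response element core TGATGNAA was found for CHAC1. The same windows of all 35116 start sites held the first in 10.9% and the second in 3.14%. Each match is shown 5′ to 3′ on the strand of the gene with 10 bases on either side, and the capitals mark the core, which reads as spelled above on the opposite strand for GCLM, CHAC1 and CBS.
SLC3A2, chr11:62881652-62881680, plus strand: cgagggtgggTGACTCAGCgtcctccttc
GCLM, chr1:93909446-93909474, minus strand: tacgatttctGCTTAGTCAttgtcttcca
CHAC1, chr15:40953252-40953279, plus strand: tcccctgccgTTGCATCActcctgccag
CBS, chr21:43076442-43076470, minus strand: ccggctctggGCGCGGTCAcgcggggcgc

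By GENCODE release 44 the SLC3A2 and CBS stretches lie in introns of longer transcripts of the same genes, while those of GCLM and CHAC1 overlap an exon of another transcript of the gene. The 4 genes had FPKM ratios of 1.09 for SLC3A2, 0.955 for GCLM, 0.908 for CHAC1 and 0.418 for CBS. GCLC and CTH, whose windows held neither core, were at 1.18 and 1.02. Genes with a core thus lay on both sides of 1. A match to these letters is a description of the sequence and not a bound site.

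**Figure D1:**
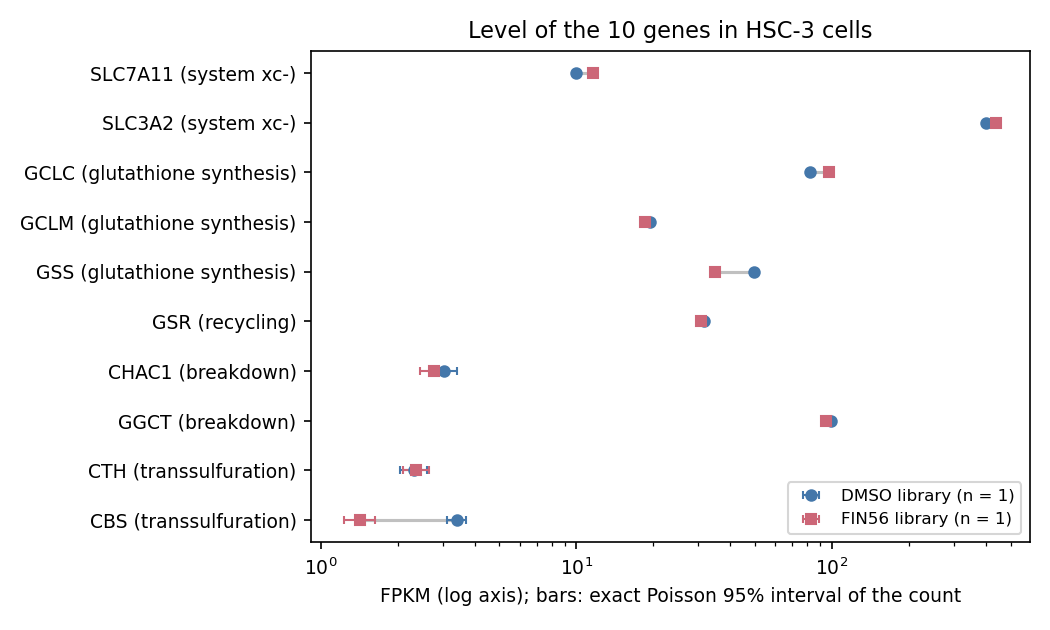
FPKM (log axis) of the 10 genes in the DMSO library (circles) and the FIN56 library (squares), 1 library each, with bars for the exact Poisson 95% interval of the count. SLC3A2 is the highest in both libraries, and the widest gap between the symbols belongs to CBS.

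The levels covered a wide range. From CTH to SLC3A2 the FPKM differed by 174-fold with DMSO, and from CBS to SLC3A2 by 309-fold with FIN56. In DMSO the order from high to low was SLC3A2, GGCT, GCLC, GSS, GSR, GCLM, SLC7A11, CBS, CHAC1 and CTH. Exact Poisson intervals of neighbours overlapped only for CBS (3.11 to 3.71 FPKM) and CHAC1 (2.71 to 3.40). In FIN56, GCLC stood above GGCT, with overlapping intervals of 95.6 to 98.4 and 92.2 to 96.6 FPKM. CBS stood last there, below CHAC1 and CTH, whose intervals overlapped each other and not that of CBS (1.23 to 1.63 FPKM). Between 3546 and 46090 expected counts stood behind 7 of the genes, and between 202 and 512 behind CBS, CHAC1 and CTH.

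System xc- is a pair of proteins. SLC7A11 (ENSG00000151012, chr4:138164097-138242349, minus strand, 12 exons), also called xCT, is the light chain that carries cystine and glutamate. Its FPKM was 9.95 in DMSO and 11.61 in FIN56, a ratio of 1.17. The expected counts were 6568 and 7886, and the count ratio of 1.15 had an interval of 1.12 to 1.19. FIN56 was thus the higher library, with a counting interval wholly above 1, at a ratio that 74.5% of the 12638 genes did not exceed. The antisense gene SLC7A11-AS1 overlaps 865 of the 9645 bases of the canonical SLC7A11 transcript on the other strand. It had 71.9 expected counts in DMSO and 87.88 in FIN56. The labels name a stranded kit, while the strand setting of the counting is not given in the sources used here.

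SLC3A2 (ENSG00000168003, chr11:62856004-62888880, plus strand, 9 exons in the canonical transcript), the CD98 heavy chain, holds SLC7A11 and other amino acid transporters at the plasma membrane. The DMSO library held it at 401.56 FPKM and the FIN56 library at 438.33, a ratio of 1.09. Its 40395 and 46090 expected counts gave a count ratio of 1.10, with an interval of 1.08 to 1.11. By FPKM, which is scaled to length, the transcript of the heavy chain was far more abundant than that of the light chain. The FPKM of SLC3A2 was 40.4 times that of SLC7A11 with DMSO and 37.8 times with FIN56. SLC7A5, the LAT1 light chain for large neutral amino acids, pairs with the same heavy chain. It was listed at 402.93 FPKM in DMSO and 407.11 in FIN56, a ratio of 1.01. SLC7A5 thus stood level with SLC3A2 in DMSO and below it in FIN56.

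Glutathione synthesis starts with glutamate-cysteine ligase, which joins cysteine to glutamate and sets the rate of the pathway. GCLC (ENSG00000001084, chr6:53497341-53616970, minus strand, 16 exons) encodes its catalytic subunit. The FPKM of GCLC was 81.87 in DMSO and 96.99 in FIN56, a ratio of 1.18 and the highest of the 10 genes. The count ratio, from 15882 and 18795 expected counts, was 1.14 with an interval of 1.11 to 1.16. Both measures placed FIN56 above DMSO and below 1.5. An antisense gene, GCLC-AS1, overlaps 252 of the 3785 bases of the canonical transcript and had 39.82 and 60.68 expected counts.

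GCLM (ENSG00000023909, chr1:93885199-93909456, minus strand, 7 exons) encodes the modifier subunit, which makes the catalytic subunit more efficient. The DMSO library held it at 19.43 FPKM and the FIN56 library at 18.55, a ratio of 0.955. Its 3569 and 3546 expected counts gave a count ratio of 0.954, with an interval of 0.911 to 1.00 that reached 1. The counting interval of GCLC thus lay wholly above 1 and that of GCLM did not. The FPKM of GCLC was 4.21 times that of GCLM in DMSO and 5.23 times in FIN56.

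GSS (ENSG00000100983, chr20:34928432-34956027, minus strand, 13 exons) encodes glutathione synthetase, which adds glycine in the last step. Its FPKM was 49.43 in DMSO and 34.92 in FIN56, which is 29.4% less and a ratio of 0.706. The expected counts of 5913 and 4196 were whole numbers, as was the case for 6 of the 10 genes. They gave a count ratio of 0.682, with an interval of 0.655 to 0.709 that spans 1/1.5. Of the 12638 genes, 9.16% had an FPKM ratio as low as that of GSS or lower. Read per length, GCLC stood at 1.66 times the level of GSS in DMSO and at 2.78 times in FIN56. The gap between the transcripts of the first and the last enzyme of the route was thus wider with FIN56.

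GSR (ENSG00000104687, chr8:30678066-30727846, minus strand, 13 exons) encodes glutathione reductase, which returns oxidised glutathione to its reduced form with electrons from NADPH. It was nearly level, at 31.69 FPKM with DMSO and 30.68 with FIN56. The ratio was 0.968, and the count ratio 0.965 with an interval of 0.932 to 0.999, from 6370 and 6399 expected counts.

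**Figure D2:**
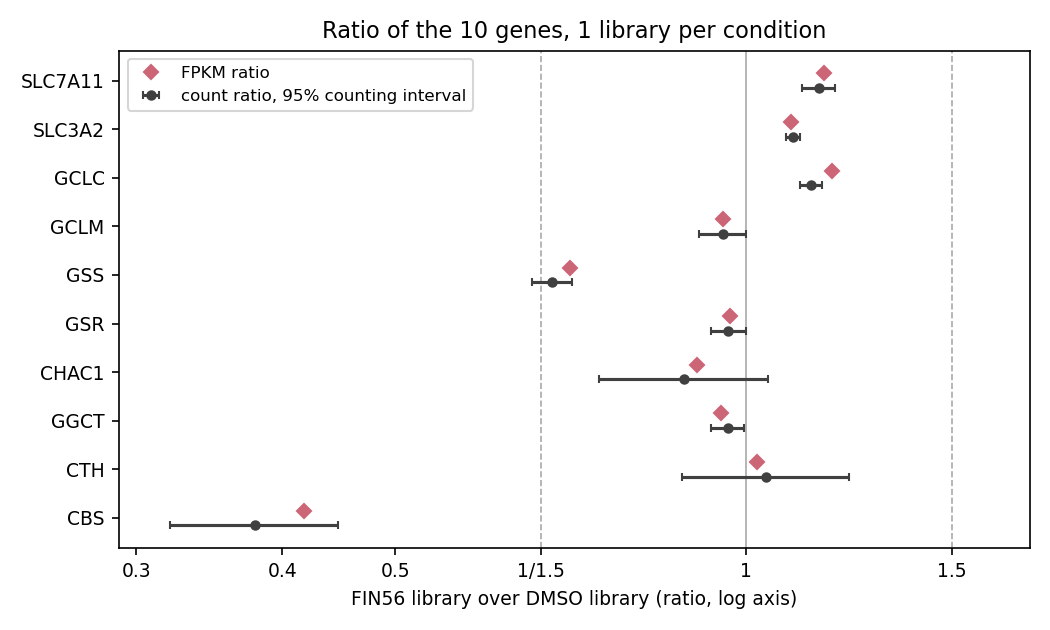
Ratio of the FIN56 library to the DMSO library (log axis) for the 10 genes, as FPKM ratios (diamonds) and as count ratios with 95% counting intervals (circles and bars); dashed lines mark 1.5 and 1/1.5. CBS lies to the left of 1/1.5 by both measures, GSS next to that line, and the other 8 genes between 0.884 and 1.18.

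Glutathione breakdown was represented by CHAC1 and GGCT. CHAC1 (ENSG00000128965, chr15:40952962-40956512, plus strand, 3 exons) encodes an enzyme that cleaves the gamma-glutamyl bond of glutathione in the cytosol. It is a known ATF4 target, and its transcript is widely used as a marker of cystine starvation and of ferroptosis induced by blocking system xc-. In these libraries the FPKM of CHAC1 was low, at 3.04 in DMSO and 2.76 in FIN56. The ratio was 0.908, and 301 and 277 expected counts gave a count ratio of 0.884 with an interval of 0.748 to 1.04. No difference in CHAC1 was detectable at this depth, and the upper bound lies below 1.5. CHAC2, a relative with constitutive activity, stood at 9.92 and 11.31 FPKM.

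GGCT (ENSG00000006625, chr7:30496621-30504841, minus strand, 4 exons) encodes gamma-glutamylcyclotransferase, which acts on the gamma-glutamyl amino acids that arise in the cycle. Its FPKM was 99.21 in DMSO and 94.39 in FIN56, a ratio of 0.951. The count ratio was 0.964 with an interval of 0.932 to 0.996, from 7023 and 7046 expected counts. A readthrough gene model on the same strand, ENSG00000281039, shares 441 of the 1158 bases of the canonical GGCT transcript, and the deposited tables list it at 0 in both libraries.

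CTH (ENSG00000116761, chr1:70411218-70439851, plus strand, 12 exons), cystathionine gamma-lyase, releases cysteine at the end of the transsulfuration route. It was the lowest of the 10 genes in DMSO, at 2.31 FPKM, and stood at 2.36 in FIN56. The 282 and 305 expected counts gave a count ratio of 1.04 with an interval of 0.881 to 1.23, so no difference was detectable at this depth.

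CBS (ENSG00000160200, chr21:43053191-43076943, minus strand, 17 exons), cystathionine beta-synthase, condenses homocysteine with serine at the entry to the same route. CBS was the 1 gene of the 10 past the threshold. Its FPKM fell from 3.40 in DMSO to 1.42 in FIN56, a ratio of 0.418, or 58.2% less. The expected counts were 512 and 202, and the count ratio was 0.379 with an interval of 0.320 to 0.447, which lies wholly below 1/1.5. Only 0.491% of the 12638 genes had an FPKM ratio as low as that of CBS or lower. The FPKM of CTH was 0.679 times that of CBS in DMSO and 1.66 times in FIN56, so the order of the pair turned round.

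The CBS values carry a limit, because the annotation behind the deposited tables holds a near-identical copy, CBSL (ENSG00000274276). Of the 2421 windows of 75 bases in the canonical CBS transcript, 96.9% also occur in transcripts of the copy. All 1284 windows that match the CBS locus without a break recur between 6444869 and 6465024 on chromosome 21. RSEM divides reads that fit both genes, and the counts of both were not whole. CBSL had 12.83 expected counts in DMSO and 17.04 in FIN56, which is 2.44% and 7.78% of the counts of the pair. Counted together, CBS and CBSL had 525 and 219 rounded expected counts, a ratio of 0.401 with an interval of 0.341 to 0.470. The sum of their FPKM values was 3.70 in DMSO and 1.88 in FIN56, a ratio of 0.508. The decrease was therefore present in the pair as well, at a smaller size by FPKM.

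An FPKM ratio can depart from the count ratio, since RSEM estimates the effective length of a gene in each library from its mix of transcripts. The length implied by counts and FPKM was 0.907 times as long in FIN56 as in DMSO for CBS. For the other 9 genes this factor lay between 0.960 for GCLC and 1.02 for CTH. For CBS the FPKM ratio is accordingly nearer to 1 than the count ratio.

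**Figure D3:**
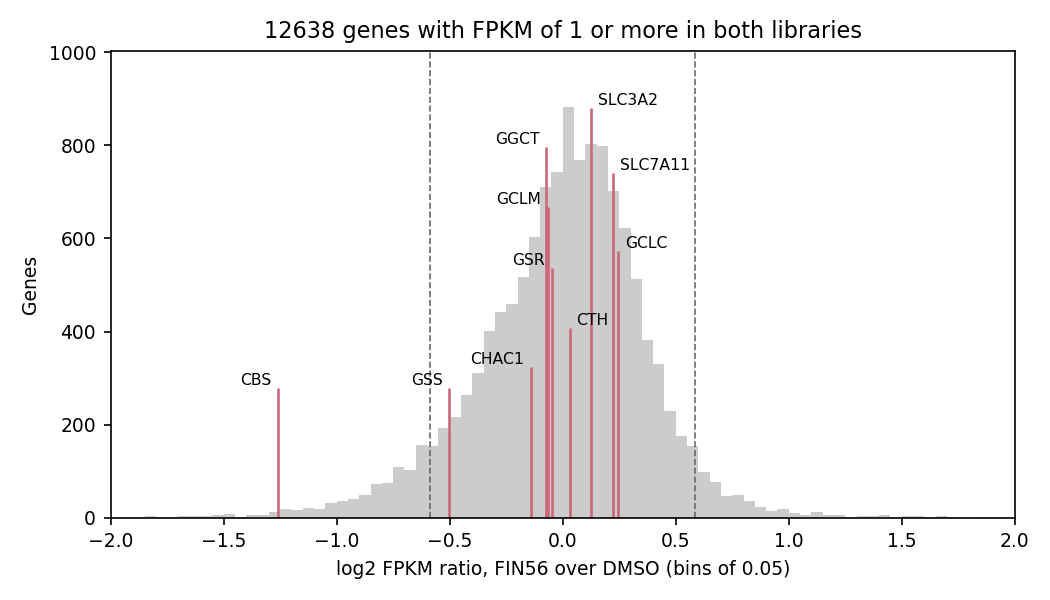
Histogram of log2 FPKM ratios (FIN56 over DMSO, bins of 0.05) of the 12638 genes with an FPKM of 1 or more in both libraries, with lines for the 10 genes; line heights carry no value, dashed lines mark 1.5 and 1/1.5, and 7 genes beyond 2 in either direction are not drawn. CBS lies in the lower tail, left of -1, and GSS at -0.50, while the other 8 genes lie in the body of the distribution.

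The genes around the pathway were read from 9 lists. From each list, the pair of genes with the highest and the pair with the lowest FPKM ratio are named, given 100 or more expected counts over the libraries, and further genes were named after their values were seen. These lists are read against the shares of all genes above 0 in both libraries, 14.7% at 1.5 or more and 17.3% at 1/1.5 or less. The methionine cycle supplies the homocysteine that CBS uses. Of its 22 listed genes, with cysteine catabolism included, 20 had an FPKM above 0 in both libraries, 3 at 1.5 or more and 3 at 1/1.5 or less, which is near those shares. AHCY, which splits S-adenosylhomocysteine into homocysteine and adenosine, went from 106.22 to 52.17 FPKM, a ratio of 0.491 (count interval 0.466 to 0.493). Its relative AHCYL1 went from 42.19 to 22.31 (0.529), while AHCYL2 was at 4.58 and 6.03 (1.32). By counts AHCYL2 was nearer to 1, with a count ratio of 1.07 and an interval of 0.995 to 1.15 that included 1. MAT2A, which makes S-adenosylmethionine at the start of the cycle, was at 129.98 and 135.00, a ratio of 1.04. AHCY and CBS thus had low ratios, while MAT2A and CTH were near 1. The listed genes MAT2B (1.04), MTR (0.997) and MTRR (1.01) were near 1 too. MAT2A, MAT2B, MTR and MTRR were named after their values were seen, and a pattern along the route was not tested. TST, a sulfur transferase of cysteine catabolism, rose from 3.61 to 5.86 (1.62), and the other genes past the threshold, BHMT, BHMT2 and CBSL, had fewer than 20 expected counts in each library.

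Other transport of cystine and cysteine and the partners of the CD98 heavy chain made up most of a list of 15 genes. The list also held OTUB1 and CD44, which are not transporters. Of the 15 genes, 12 were above 0 in both libraries. SLC1A4, a neutral amino acid transporter, fell from 2.0 to 0.98 FPKM (0.490). SLC3A1, the heavy chain of another cystine transporter, was at 0.04 and 0.08 FPKM, and its count interval of 0.60 to 4.34 included 1. The highest ratios among genes with enough counts were those of SLC1A5 (1.29) and SLC7A6 (1.24), and CTNS, the lysosomal cystine exporter, was at 0.831. In the gamma-glutamyl cycle, 9 of 13 genes were above 0 in both, none at 1.5 or more and 3 at 1/1.5 or less, beside 17.3% of all genes. These were OPLAH (0.40), ANPEP (0.407) and GGT7 (0.662), each below 1 FPKM in both libraries, and the count interval of GGT7, 0.575 to 1.04, included 1. CHAC2 (1.14) and CNDP2 (1.02) had the highest ratios there. Among the 7 genes of glutathione transport none passed either threshold by FPKM and 6 were below 1. ABCC1, an exporter of glutathione conjugates, had an FPKM ratio of 0.700 and a count ratio of 0.560 (0.542 to 0.579). ABCC4 was at 0.825, and the mitochondrial carriers SLC25A39 and SLC25A40 were at 0.914 and 1.08. The count ratio of SLC25A40 was 0.962, with an interval of 0.901 to 1.03 that included 1.

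Enzymes that use glutathione were listed as peroxidases, transferases and glutaredoxins. Of the 24 genes above 0 in both libraries, 1 was at 1.5 or more and 5 at 1/1.5 or less, beside 14.7% and 17.3% of all genes. GPX2 fell from 3.67 to 1.32 FPKM (0.360), GSTZ1 from 12.53 to 4.90 (0.391) and GPX3 from 2.40 to 1.2 (0.50). GSTM4 and GSTA4 were below 1 FPKM, and the higher gene, GSTM3, rested on 5 and 11 expected counts. GPX4 itself was level, at 245.57 and 243.55 FPKM (0.992). The highest ratios were those of GLRX2 (1.3) and GSTT2B (1.21), the latter uncertain because of its near copy GSTT2, with 9.66 and 0 expected counts. Among the 15 genes of NADPH supply, which GSR depends on, none was at 1.5 or more and 5 were at 1/1.5 or less. They included PGLS (0.611) and PGD (0.657) of the pentose phosphate pathway, cytosolic IDH1 (0.651) and ALDH1L2 (0.628). By counts ALDH1L2 was not past the threshold, with a count ratio of 0.787 and an interval of 0.707 to 0.877. ALDH1L1, the other, had 5 and 1 expected counts. MTHFD2 (1.39) and IDH2 (1.21) had the highest ratios.

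By FPKM ratio, none of the 17 listed regulators passed either threshold, and 13 of them were above 1. By count ratio, not every one of them stayed below 1.5. NFE2L2, which encodes NRF2, was at 51.53 and 59.24 FPKM (1.15), and its inhibitor KEAP1 at 25.99 and 32.64. ATF4 (0.895) and BACH1 (0.870), a repressor at antioxidant response elements, had the lowest ratios, and DDIT3 (1.48) the highest. Other NRF2 targets, 13 genes, had 1 past a threshold, AKR1C1, which fell from 73.41 to 38.72 FPKM (0.527). AKR1B10 was at 0.676, and the ferritin light chain FTL (1.37) and HMOX1 (1.36) were the highest. HMOX1 was low, at 1.37 FPKM in DMSO and 1.87 in FIN56. Of these 13 genes, 7 had a ratio above 1 and 6 below, NQO1 (0.770) among the latter. Other ATF4 targets, 14 genes above 0 in both, had 1 at 1.5 or more and 2 at 1/1.5 or less. DDIT4 fell from 294.05 to 105.71 FPKM (0.359) and ASNS, asparagine synthetase, from 51.70 to 21.43 (0.415), while STC2 was at 19.46 and 31.35 (1.61) and MTHFD2 at 1.39. STC2 passed 1.5 by FPKM alone, since its count ratio was 1.37 with an interval of 1.32 to 1.42. CHAC1, TRIB3 (1.07) and SESN2 (0.993), which are classed with the same targets, stayed near 1. PHGDH (0.741), PSPH (0.766) and PSAT1 (0.847) of this list were lower without passing the threshold. Of the 14 genes, 6 had a ratio above 1 and 8 below.

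**Figure D4:**
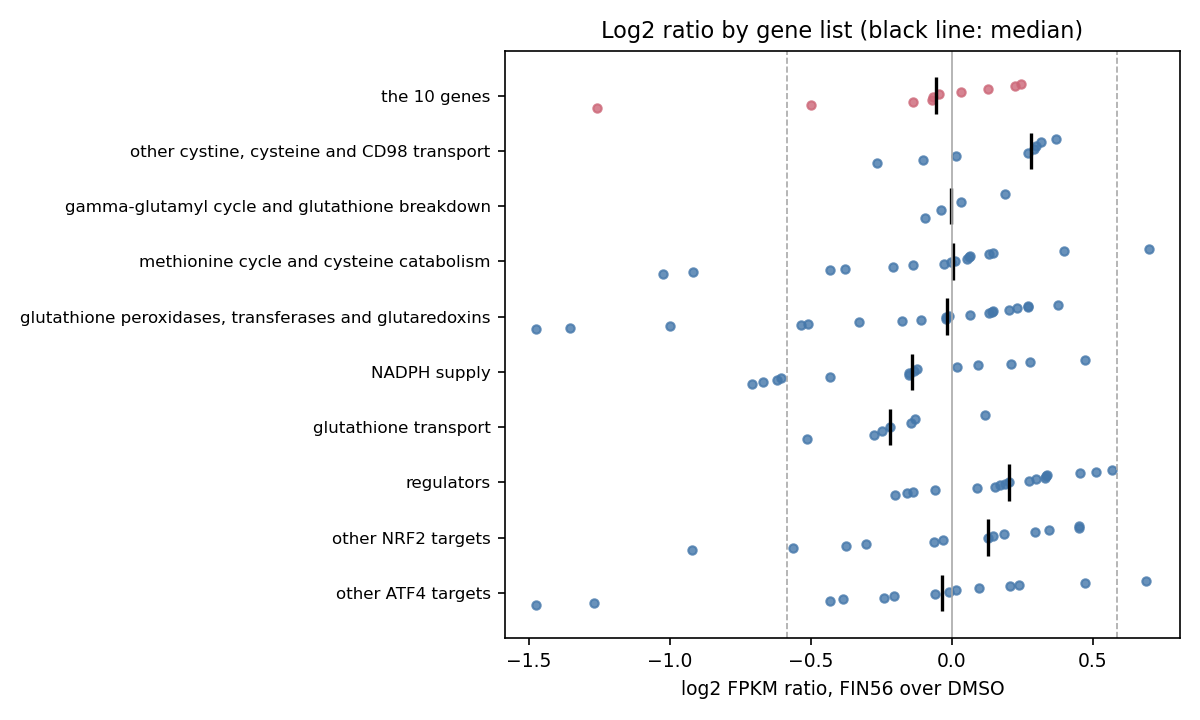
Log2 FPKM ratio (FIN56 over DMSO) of each gene with an FPKM of 1 or more in both libraries, by list, with the median as a black line and dashed lines at 1.5 and 1/1.5. The medians lie between -0.22 for glutathione transport and 0.28 for other cystine, cysteine and CD98 transport, where the latter is 0.14 with all its genes above 0 in both libraries, and that of the 10 genes lies at -0.057.

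At an FPKM of 1 or more in both libraries, 6.77% of all genes and 1 of the 10 genes of cystine uptake and glutathione synthesis were at 1/1.5 or less. The lists held 4 of 14 genes there for NADPH supply, with ALDH1L2 among them, 3 of 20 for the enzymes that use glutathione, 2 of 16 for the methionine list, 2 of 14 for other ATF4 targets and 1 of 13 for other NRF2 targets. None was there among 8 genes of other transport, 4 of the gamma-glutamyl cycle, 7 of glutathione transport and 17 regulators. These counts have no test, and some lists share genes.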

How the data were processed

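RNA of HSC-3 cells was sequenced in 2 libraries, 1 per treatment, grouped by the treatment label. By the study's methods, written for tumor samples, and the submitters' processing notes, reads were trimmed with AfterQC, checked with FastQC 0.11.7, aligned to GRCh38 with STAR 2.6.1a and quantified with RSEM 1.3.1. The authors deposited expected counts, which are raw estimates and may hold fractions. The deposited FPKM values carry 2 decimals, and the deposited TPM values were scaled to a fixed sum per library. The deposited rlog values, from DESeq2 1.26.0, lie on a log2 scale. No other per-sample columns were present.

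Ratios of FPKM, FIN56 over DMSO, were compared with 1.5 and 1/1.5 in whole hundredths. No test was made, since each condition had 1 library. Counting intervals were Clopper-Pearson for ratios and exact Poisson for levels, at 95%, on rounded expected counts. The members and lists were chosen with earlier results of these data known. By rule, genes named from a list were the 2 highest and 2 lowest FPKM ratios among those whose expected counts over the libraries came to 100 or more, plus CBSL, CHAC2, SLC7A5 and SLC3A1. Every other list gene was named after its values were seen. A gene that this rule would name is not reported here. Positions and shared windows of 75 bases came from GENCODE release 44 (GRCh38), and promoters from RefSeq (GRCh38.p14). The 10 alternatives were TPM, rlog, edgeR 4.0.16 TMM, DESeq2 1.42.0 size factors, library totals, pseudocounts of 0.1 and 1 FPKM, minimums of 1 FPKM or 10 expected counts, and a threshold of 2. The interval step was tested on simulated Poisson counts only. These hold no repeated molecules, divided reads or differences between cultures, so the test does not cover those. Python 3.11.15, scipy 1.17.1, pandas 2.3.3 and R 4.3.3 were used.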

Additional observations from a re-analysis of the deposited data

How the results depend on the processing

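No paired analysis was possible because there was a single library for each treatment, and no library could be left out. The number of the 10 genes at 1.5 or more was 0 under all 10 alternatives. The pseudocounts, the minimums and the threshold of 2 could not raise this number. The number at 1/1.5 or less was 1 under 9 of the 10 alternatives, where the minimums could not change it. It was 0 with the rlog values, a transform that shrinks differences by construction. The ratio of CBS ran from 0.378 to 0.788, the latter with the rlog values, and that of GSS from 0.681 to 0.861. Each of the 10 genes kept its side of 1 under the 9 alternatives that give a ratio, and the median log2 ratio of the 10 ran from -0.057 to -0.0066. The pseudocounts cannot move a ratio across 1, and the minimums left the ratios of all 10 genes as they were, so these settings could not change a side. The median over all genes with an FPKM of 1 or more in both libraries moved by less than 0.1 on the log2 scale. Of the 9 lists, 4 had a median that changed sign under at least 1 alternative, namely the gamma-glutamyl cycle, the enzymes that use glutathione, the methionine cycle and the other ATF4 targets. The low counts of CBS, CHAC1 and CTH limit their precision. The median of other cystine, cysteine and CD98 transport was 0.14 by FPKM ratio, 0.28 at an FPKM of 1 or more, which leaves out SLC1A4, and 0.015 at 10 or more expected counts in each library.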
